A study of Mus musculus with 12 samples.

Results

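The P2X genes encode ATP-gated ion channels, and 7 of them (P2rx1 to P2rx7) were followed in whole spinal cord of mice with a dominant mutation in Gars, the gene of glycyl-tRNA synthetase. The 7 genes were chosen by name from the 38924 genes of each mouse's table, on a comparison of mutant with wild-type cord in which P2rx3 was already known to be higher. Their differences between the genotypes are therefore given as a description, with no test of a member. RNA was sequenced from 12 mice of 8 weeks on a mixed B6J;CAST background (C57BL/6J and CAST), 6 wild type (WT) and 6 with 1 copy of the P278KY allele of Gars, which every cell of the animal carries. The WT mice were 3 females (numbered 1, 2 and 10) with 3 males (5, 11 and 12), and the mutants were 3 females (3, 4 and 9) with 3 males (6, 7 and 8). Dominant mutations of this synthetase cause Charcot-Marie-Tooth neuropathy, a disease of peripheral motor and sensory axons.

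Each P2X channel is a trimer of subunits that opens a cation pore when extracellular ATP binds, letting sodium and calcium into the cell. P2X3 is best known from small sensory neurons of the dorsal root ganglia, whose central axons end in the dorsal horn and which lie outside the cord. P2X4 and P2X7 are studied in microglia, where P2X7 opens upstream of the inflammasome, while P2X1 is known from smooth muscle and platelets. ATP reaches these channels from vesicles and from pannexin and other large-pore channels, and ectonucleotidases on the cell surface break it down to adenosine.

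The libraries held 26982140 to 39339999 expected counts. All 7 members passed the filter on low counts and were among the 17980 genes tested. Levels are given as CPM, counts over 1000000 counts of the library, when mice are compared for 1 gene, and as TPM, which takes account of transcript length, when genes are compared. Sensory ganglion RNA was unevenly present. The nociceptor sodium channel gene Scn10a was at 9.50 CPM in WT female 10, 7.21 CPM in WT male 11 and 17.6 CPM in P278KY male 7, and at 0 to 0.301 CPM in the other 9 mice. The summed level of the 10 ganglion markers was 1.87 to 36.7 CPM in WT mice and 4.28 to 63.9 CPM in mutants, and none of the 10 passed the genotype test in edgeR or DESeq2 or had an unadjusted p under 0.05. Skeletal muscle markers summed to 1297 to 9150 CPM in mice 1 to 4, all females, against 36.2 to 234.6 CPM in the other 8. The cord's own cells were present, with microglial markers at 302.5 to 378.7 CPM in WT mice and 297.1 to 360.5 CPM in mutants and oligodendrocyte markers at 24420 to 35140 CPM over all mice.

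Between the genotypes, 956 of the 17980 tested genes (5.32%) passed an adjusted p of 0.05 in edgeR's quasi-likelihood test, 425 (2.36%) higher and 531 (2.95%) lower in P278KY mice. Among the 7 P2X genes, P2rx3 was on the higher side of that threshold and P2rx5 on the lower side. The CPM of the 6 WT and the 6 P278KY mice did not overlap for the same pair of genes, and for 671 tested genes (3.73%). Because the members were chosen on this contrast, nothing is read from these counts. On log2(TPM + 1) values the limma test called 1606 genes, of which 84.6% were higher, against 44.5% of the calls on counts. The median log2 change of all tested genes was 0.062 on that scale and -0.003 on counts, so single genes on the 2 scales differ by this shift too.

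P2rx4 was the most abundant member per length. Its level was 23.9 ± 2.23 TPM over the 12 mice (SD, n = 12), above every other P2X gene in every mouse except for P2rx3 in P278KY male 7, which were at 20.6 and 21.7 TPM. P2rx6 (11.5 ± 0.812 TPM), P2rx5 (10.8 ± 1.36 TPM) and P2rx7 (9.39 ± 0.730 TPM) followed, with ranges that overlapped. P2rx6 was above P2rx5 in 8 of the 12 mice and P2rx5 above P2rx7 in 9, and the order depended on genotype. In WT mice P2rx5 (10.89 to 13.79 TPM) lay above P2rx7 (8.63 to 9.86 TPM) without overlap, while P2rx6 and P2rx5 overlapped. In P278KY mice P2rx6 (10.85 to 11.74 TPM) lay above P2rx5 (8.91 to 10.56 TPM) without overlap, while P2rx5 and P2rx7 overlapped. P2rx3 ran from 1.47 to 21.7 TPM, the widest range of the family. In WT mice its mean of 2.48 TPM lay well under that of P2rx7 (9.40 TPM). In P278KY mice its mean was 12.3 TPM, against 11.3 TPM for P2rx6 and 9.74 TPM for P2rx5. That P2rx3 mean includes male 7 at 21.7 TPM, and the P278KY median of P2rx3 lay under that of P2rx6. In P278KY mice 3, 4 and 6 P2rx3 (9.53, 8.08 and 9.98 TPM) lay under P2rx6 (11.11, 11.34 and 11.44 TPM). In P278KY mice 7, 8 and 9 it lay above P2rx6. P2rx2 (0.575 ± 0.201 TPM) and P2rx1 (0.338 ± 0.179 TPM) were low, with 7 to 29 and 3 to 28 expected counts per library, and P2rx2 was the higher of the pair in 10 mice.

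**Figure D1:**
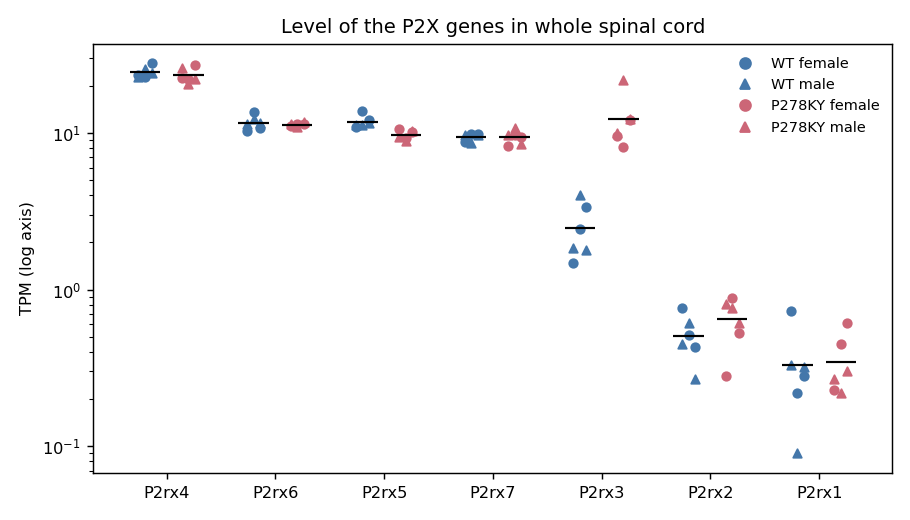
Level of each P2X gene in TPM (log axis) in each of the 12 mice, with circles for females, triangles for males, blue for WT, red for P278KY and a black line at the mean of 6 mice. P2rx4 is highest at a mean of 23.9 TPM, and only P2rx3 and P2rx5 show genotypes that do not overlap.

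P2rx3 encodes the subunit of the ATP channel of nociceptors (ENSMUSG00000027071, protein coding, 12 exons) and lies on chromosome 2, minus strand, at 84998583 to 85037462 of GRCm38. The authors' tables list 5 transcripts for it, the same identifiers as GENCODE M21. P2rx3-201, P2rx3-202 and P2rx3-203 code for protein, and P2rx3-204 and P2rx3-205 are annotated as processed transcripts without a coding sequence. The stretches below are shown because the transcripts differ in them and the mean transcript length of P2rx3 differed between the genotypes. They are read from the reference genome on the minus strand, 5′ to 3′, and do not come from the mice. The coding part of exon 1 (chr2:85035181-85035299), shared by the coding transcripts, opens with the start codon in capitals. Exon 3 of P2rx3-201 (chr2:85024382-85024453) is 72 bases, or 24 codons, that P2rx3-203 skips in frame. Exon 4 of P2rx3-201 (chr2:85024110-85024173) ends in 6 bases, in capitals, that P2rx3-202 lacks. The first exon of P2rx3-204 (chr2:85033001-85033194) lies within the first intron of P2rx3-201, which is 10189 bases long, and its 194 bases are also part of P2rx3-205.
Exon 1, coding part: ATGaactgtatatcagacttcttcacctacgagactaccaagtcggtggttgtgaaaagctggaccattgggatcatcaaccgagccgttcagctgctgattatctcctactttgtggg
Exon 3: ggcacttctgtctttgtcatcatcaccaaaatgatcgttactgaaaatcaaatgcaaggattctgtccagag
Exon 4: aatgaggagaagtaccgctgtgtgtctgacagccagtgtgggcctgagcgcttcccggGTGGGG
First exon of P2rx3-204: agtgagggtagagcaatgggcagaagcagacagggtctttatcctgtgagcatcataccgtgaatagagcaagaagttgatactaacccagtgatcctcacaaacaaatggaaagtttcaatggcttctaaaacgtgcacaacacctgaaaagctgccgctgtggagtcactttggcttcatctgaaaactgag

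P2rx3 was higher in P278KY than in WT cord, without overlap. In WT females it was at 1.26, 1.90 and 2.79 CPM (mice 1, 2 and 10), and in WT males at 1.25, 3.22 and 1.62 CPM (mice 5, 11 and 12). In P278KY females it was at 5.35, 5.36 and 7.19 CPM (mice 3, 4 and 9), and in P278KY males at 5.48, 12.8 and 6.73 CPM (mice 6, 7 and 8). The lowest mutant stood above the highest WT mouse, and P278KY male 7 stood well above the other mutants. The means were 2.01 ± 0.822 CPM in WT mice and 7.14 ± 2.86 CPM in mutants (SD, n = 6 each), a ratio of 3.56. The libraries held 36 to 90 expected counts of the gene in WT and 161 to 397 in P278KY mice. The fitted log2 change was 1.81 (SE 0.30), the 26th highest of the 17980 tested genes. Within females it was 1.59 (SE 0.43) and within males 2.03 (SE 0.43). Per length, the level was 2.48 ± 0.996 TPM in WT and 12.3 ± 4.87 TPM in P278KY mice, a ratio of 4.95. In whole tissue, more cells that make a transcript and more of it per cell cannot be told apart.

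**Figure D2:**
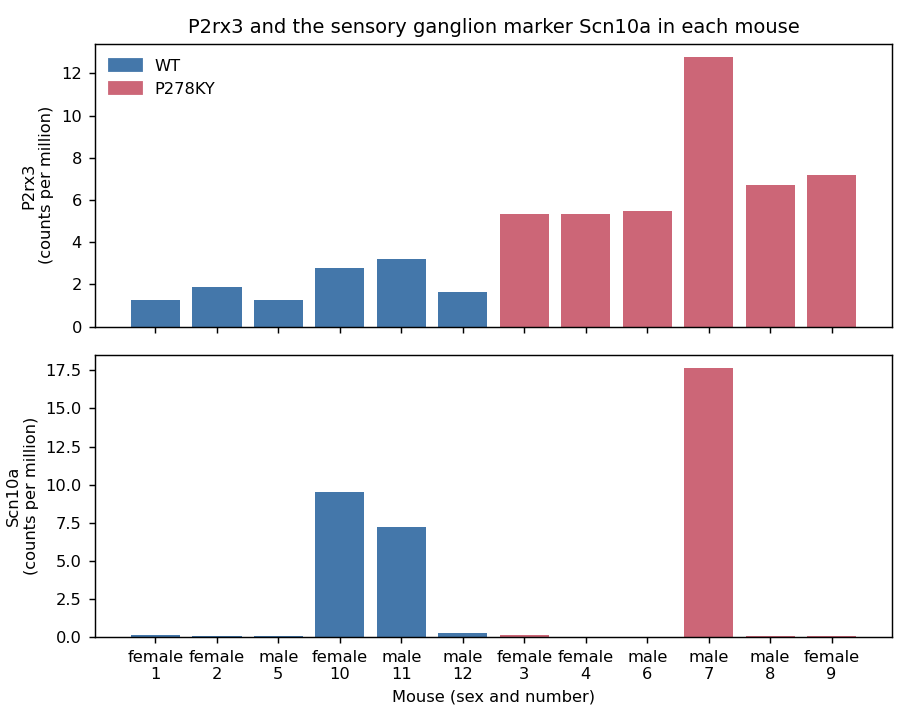
P2rx3 (top) and Scn10a (bottom) in CPM in each mouse, WT in blue and P278KY in red, with each mouse's sex and number under its bar. All 6 mutants (5.35 to 12.8 CPM) are above all 6 WT mice (1.25 to 3.22 CPM) for P2rx3, while Scn10a is high in mice 7, 10 and 11 of either genotype.

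The 3 mice with most ganglion RNA had the highest P2rx3 of their genotype. P2rx3 was at 2.79 and 3.22 CPM in WT mice 10 and 11 and at 12.8 CPM in P278KY male 7. In the other 9 mice, where Scn10a was at 0.301 CPM or less, it was at 1.25 to 1.90 CPM in the 4 WT and at 5.35 to 7.19 CPM in the 5 P278KY mice. The means there were 1.51 ± 0.313 CPM (SD, n = 4) and 6.02 ± 0.874 CPM (SD, n = 5), a ratio of 3.997, and the fitted log2 change was 1.99 (SE 0.18). With the mean of the ganglion markers as a covariate over all 12 mice it was 1.95 (SE 0.15).

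The summed ganglion markers overlapped between the genotypes in those 9 mice. Mrgprd and Scn11a, of the same nociceptors, were at 0 to 0.0992 CPM and 0.0634 to 0.237 CPM there, and Mrgprd had no count in 7 of the 9. The sum of the 10 markers was 1.87 to 11.2 CPM in WT mice and 4.28 to 7.24 CPM in mutants. Avil, the advillin gene of sensory neurons, was the exception and was singled out after its values were seen. It was at 0.278 to 0.809 CPM in the 4 WT and at 2.19 to 3.08 CPM in the 5 P278KY mice with little ganglion RNA. In mice 10 and 11 it was at 7.52 and 5.31 CPM and in P278KY male 7 at 15.2 CPM, and over all 12 mice it did not pass the genotype test (log2 change 0.76, SE 0.99, adjusted p = 0.734).

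Markers of cord cells and of Schwann cells also moved with genotype, and their part in the P2rx3 difference was not tested. Of 8 tested dorsal horn neuron markers, 2 rose and none fell, Tac1, the substance P precursor (log2 change 0.39, SE 0.06, adjusted p = 0.00185), and Nmur2, a neuromedin receptor (0.53, SE 0.12, adjusted p = 0.0278). Their summed level was 67.1 to 81.8 CPM in WT mice and 80.3 to 95.6 CPM in mutants. Of 6 tested motor neuron markers 4 fell, and the list summed to 161.3 to 247.5 CPM in WT mice and 125.8 to 144.3 CPM in mutants. Of 6 Schwann cell markers 1, Pmp2, fell in edgeR (3 with DESeq2), and the list summed to 1166 to 1999 CPM in WT mice and 322.5 to 1222 CPM in mutants. Of 5 astrocyte markers 1, Slc1a3, rose in edgeR (3 with DESeq2), and the list summed to 5084 to 5543 CPM in WT mice and 5401 to 6494 CPM in mutants.

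The mean transcript length of P2rx3 was shorter in P278KY mice. RSEM gives each gene the mean length of its transcripts weighted by their estimated abundance, so this value moves when the mix of transcripts moves. In WT females it was 1725.94, 1630.93 and 1701.06 bases (mice 1, 2 and 10), and in WT males 1400.02, 1628.1 and 1802.22 bases (mice 5, 11 and 12). In P278KY females it was 1207.46, 1453.17 and 1305.41 bases (mice 3, 4 and 9), and in P278KY males 1236.69, 1318.77 and 1203.12 bases (mice 6, 7 and 8). WT male 5 and P278KY female 4 were the only mice whose values crossed between the genotypes. The means were 1648 ± 137.7 bases in WT and 1287 ± 94.7 bases in mutants (SD, n = 6 each). The ratio of 0.781 was the 34th lowest among 11216 tested genes whose length varied between mice, where the median ratio was 0.9998. In the 9 mice with little ganglion RNA the means were 1640 ± 174.5 bases (n = 4) and 1281 ± 104.5 bases (n = 5).

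In GENCODE M21 the coding transcripts P2rx3-201, P2rx3-202 and P2rx3-203 span 1812, 1764 and 1315 bases and the processed transcripts P2rx3-204 and P2rx3-205 span 688 and 412 bases. The tables used here give no abundance per transcript, so which of them differed between the genotypes was not tested. In P278KY mice 3, 6, 8 and 9 the mean length lay under the 1315 bases of P2rx3-203, the shortest coding transcript. If these lengths hold, such a mean needs some weight on the processed transcripts. The authors' transcript models may also differ in length from these, since 75.9% of genes with 1 transcript had the same length in both. Within the family, the mean length of P2rx2 reached 1919 bases, above its listed transcripts of 1895 and 1632 bases in GENCODE M21. The highest mean lengths of P2rx1 (2486 bases) and P2rx5 (2395 bases) equalled their longest M21 transcripts. The 5′ end of P2rx3, where P2rx3-202 has an extra first exon, overlaps Ssrp1, a chromatin factor gene on the opposite strand, by 229 bases, and the strand setting of the counting is not given in the sources used here. Ssrp1 did not pass the genotype test (log2 change 0.07, SE 0.03, adjusted p = 0.162), nor did Tnks1bp1, the next gene beyond it (0.00, SE 0.05, adjusted p = 0.986).

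**Figure D3:**
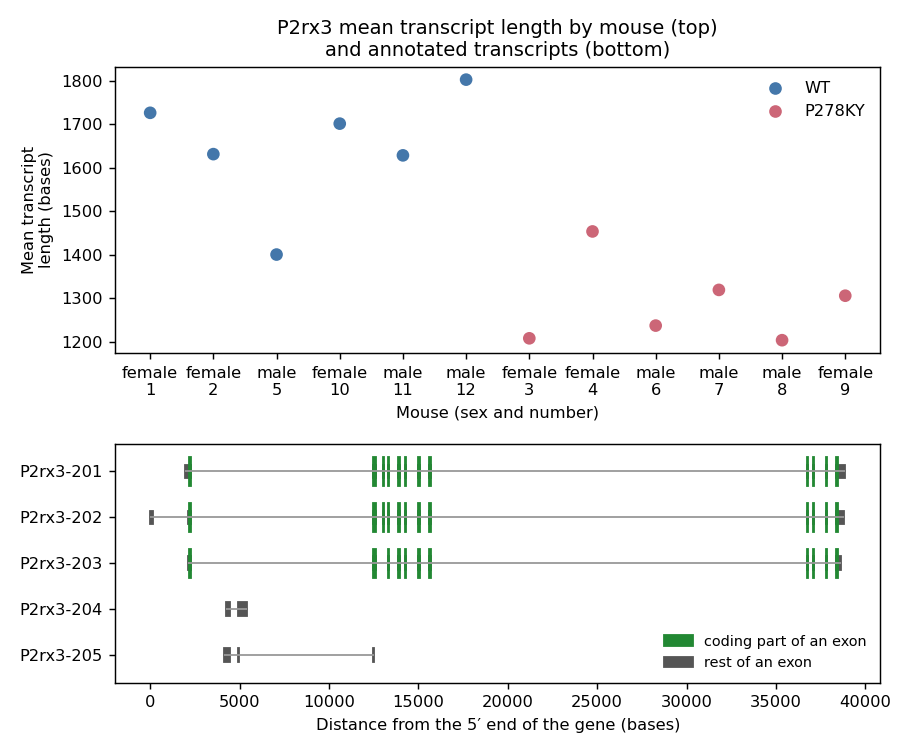
Mean transcript length of P2rx3 in bases in each mouse (top) and its 5 annotated transcripts by distance from the 5′ end of the gene (bottom), with coding exons in green and the rest of each exon in grey. P278KY mice (red) lie at 1203 to 1453 bases and WT mice (blue) at 1400 to 1802 bases.

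P2rx5, the other member on which the genotypes did not overlap, was lower in P278KY cord. The gene of the P2X5 subunit (ENSMUSG00000005950, chromosome 11, plus strand, 73160421 to 73172685) was at 13.2, 16.3 and 14.6 CPM in WT females and at 13.6, 13.4 and 14.2 CPM in WT males. It was at 12.5, 10.6 and 11.7 CPM in P278KY females and at 10.6, 10.1 and 11.9 CPM in P278KY males. The highest mutant, female 3, lay just under the lowest WT mouse, female 1. The means were 14.2 ± 1.16 CPM in WT mice and 11.2 ± 0.964 CPM in mutants (SD, n = 6 each), a ratio of 0.790. The fitted log2 change was -0.34 (SE 0.07), the same to 2 decimals within females and within males. Per length the gene was at 11.8 ± 1.07 TPM in WT and 9.74 ± 0.653 TPM in P278KY mice, also without overlap. Its mean transcript length hardly varied, at 2354 to 2395 bases. Of its neighbours, the integrin gene Itgae had a log2 change of -0.40 (SE 0.16, adjusted p = 0.188) and Emc6 one of -0.05 (SE 0.03, adjusted p = 0.392), and neither passed.

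The microglial channel genes P2rx4 and P2rx7 lie 16112 bases apart on chromosome 5, plus strand, at 122707544 to 122729738 and 122643911 to 122691432. P2rx4 (ENSMUSG00000029470) was at 15.6 to 18.7 CPM in WT, with a median of 16.9, and at 14.3 to 16.5 CPM in P278KY mice, with a median of 15.1. Its genotypes overlapped, with means of 17.0 ± 1.14 and 15.3 ± 0.907 CPM (SD, n = 6 each) and a log2 change of -0.16 (SE 0.05). On log2(TPM + 1) values that change was -0.06 (SE 0.07), where the median of all tested genes was 0.062. P2rx7 (ENSMUSG00000029468) was at 20.02 to 24.12 CPM in WT (median 22.4) and at 18.7 to 23.5 CPM in P278KY mice (median 20.3), with a log2 change of -0.11 (SE 0.07). Per length P2rx7 was at 9.40 ± 0.580 TPM in WT and 9.38 ± 0.915 TPM in P278KY mice. Of the 8 microglial markers none passed the genotype test in edgeR or DESeq2 and none had an unadjusted p under 0.05, with a median log2 change of -0.01.

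P2rx6, P2rx2 and P2rx1 had genotypes that overlapped. P2rx6 (ENSMUSG00000022758, chromosome 16, plus strand, 17561885 to 17577800), whose subunit is studied mainly in mixed channels, was at 12.7 to 15.7 CPM in WT mice and 12.2 to 13.3 CPM in mutants, with a log2 change of -0.11 (SE 0.06). Its span, introns included, shares 5783 bases with that of Slc7a4 on the opposite strand. Reads of any exon sequence that the pair shares cannot be told apart if strand was not used in counting. Slc7a4 itself had a log2 change of 0.04 (SE 0.05, adjusted p = 0.734). P2rx2 (ENSMUSG00000029503, chromosome 5, minus strand, 110339812 to 110343212), which joins P2X3 in sensory neurons, was at 0.264 to 0.728 CPM in WT mice and 0.266 to 0.729 CPM in mutants. Its log2 change was 0.26 (SE 0.30), so the partner subunit showed no separation of the genotypes like that of P2rx3. P2rx1 (ENSMUSG00000020787, chromosome 11, plus strand, 72999103 to 73015200) was at 0.110 to 0.926 CPM in WT mice and 0.257 to 0.481 CPM in mutants, with a log2 change of -0.12 (SE 0.38). Of the neighbours of these 3 genes, Pole beside P2rx2 had the smallest p (log2 change 0.28, SE 0.09, adjusted p = 0.0993). At 3 to 29 counts per library, differences of the size of these SEs were not detectable for P2rx1 and P2rx2.

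Sex was a contrast that the choice of genes did not use. In edgeR's quasi-likelihood test 16 of the 17980 genes (0.089%) passed for sex, and none of the 7 P2X genes did. None had an unadjusted p under 0.05 and none passed with DESeq2. Their log2 differences of males from females ran from -0.59 (SE 0.38) for P2rx1 to 0.27 (SE 0.29) for P2rx3, and the lowest adjusted p was 0.676. For the interaction of genotype and sex no gene passed (0%) in edgeR, while 665 had an unadjusted p under 0.05 and DESeq2 called 58. No P2X gene had an unadjusted p under 0.05 or passed with DESeq2. The largest interaction among them was that of P2rx2, at 0.76 (SE 0.59), and that of P2rx3 was 0.45 (SE 0.60).

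Across the rest of the purine pathway 2 genes fell and none rose, where 2.95% and 2.36% of all tested genes did. The 5 lists held 40 genes, of which 37 were tested (P2ry4, Entpd8 and Calhm1 were too low), with a median log2 change of -0.04 against 0.00 over all tested genes. An unadjusted p under 0.05 was found for 11 of them. The share of all tested genes at that p is not given here, so nothing is read from this count. DESeq2 called 4 of them, all lower, and 1627 of the 17980 tested genes. The edgeR calls in the lists numbered 5 without WT female 2 and 1 without mice 1 to 4. They numbered 0 without mice 7, 10 and 11 or within either sex.

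**Figure D4:**
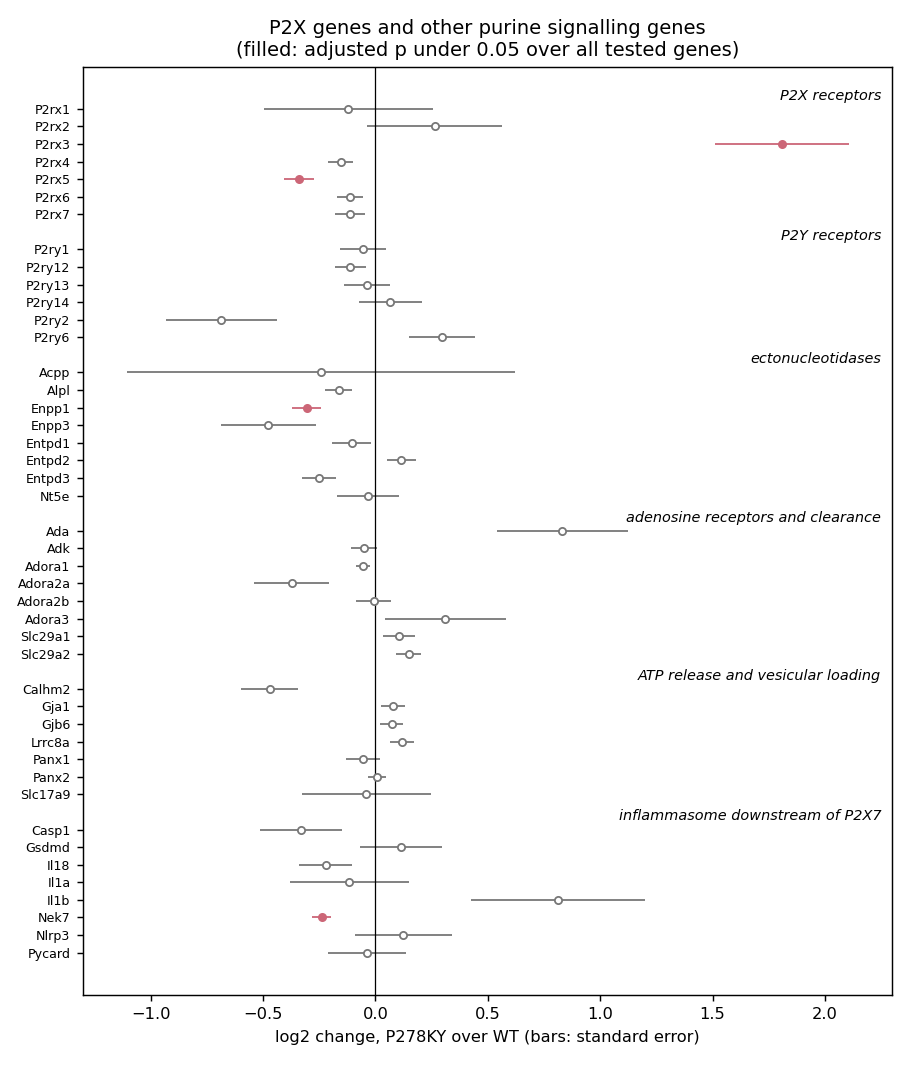
Log2 change of P278KY over WT for the 7 P2X genes and the 37 tested genes of the 5 purine lists, with bars for the standard error and filled red points for an adjusted p under 0.05 over all tested genes. P2rx3 stands at 1.81 and P2rx5 at -0.34. Their fill is not read as a test, because the P2X genes were chosen on this contrast. The filled points of Enpp1 and Nek7 lie at -0.31 and -0.24.

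Of the enzymes that break down ATP outside the cell, 1 of 8 tested fell. The log2 change was negative for 7 of the 8. The share of all tested genes with a negative change is not given here, so nothing is read from this count. The gene that fell was Enpp1, a surface pyrophosphatase that cleaves ATP. It was at 36.3, 34.7 and 38.7 CPM in WT females, 35.1, 37.5 and 30.5 CPM in WT males, 29.1, 25.7 and 31.5 CPM in P278KY females and 27.1, 27.1 and 31.7 CPM in P278KY males. WT male 12 was the WT mouse that lay among the mutants. The log2 change was -0.31 (SE 0.07, adjusted p = 0.0170). The call was lost on log2(TPM + 1) values (-0.13, adjusted p = 0.416), without mice 7, 10 and 11 (-0.24, adjusted p = 0.176) and without mice 1 to 4 (-0.27, adjusted p = 0.0841), the last 2 with fewer mice. Entpd3 had an adjusted p of 0.0778 in edgeR and was called by DESeq2.

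The inflammasome genes downstream of P2X7 had 1 call among 8. Nek7, a kinase that binds NLRP3 when potassium leaves the cell, fell in P278KY cord. It was at 67.3, 68.3 and 74.5 CPM in WT females, 75.1, 73.3 and 66.0 CPM in WT males, 63.9, 58.6 and 59.97 CPM in P278KY females and 58.0, 57.5 and 61.8 CPM in P278KY males. No mutant reached the lowest WT mouse in CPM, and the log2 change was -0.24 (SE 0.04, adjusted p = 0.00626). In TPM the genotypes overlapped slightly, with the lowest WT mouse at 37.46 and the highest mutant at 37.52. The call was lost without mice 7, 10 and 11, where the change was -0.20 (adjusted p = 0.103). It was also lost within females (-0.20, adjusted p = 0.185) and within males (-0.27, adjusted p = 0.0502). The interleukin gene Il1b had a log2 change of 0.81 (SE 0.39, adjusted p = 0.261) and the inflammasome sensor gene Nlrp3 one of 0.12 (SE 0.22, adjusted p = 0.804).

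No gene of the remaining 3 lists passed in edgeR. Their counts at an unadjusted p likewise have no share of all tested genes beside them, and nothing is read from them. Of 6 tested P2Y receptors, which signal through G proteins, 1 had an unadjusted p under 0.05 and none was called by DESeq2. The smallest p was that of P2ry2, at 2.42 to 7.24 CPM in WT mice and 1.49 to 3.12 CPM in mutants (log2 change -0.68, SE 0.25, adjusted p = 0.135). Of 8 adenosine receptors and clearance genes, 3 had an unadjusted p under 0.05 and none was called by DESeq2. Ada, which deaminates adenosine, was at 0.774 to 1.85 CPM in WT mice and 1.41 to 4.01 CPM in mutants (0.83, SE 0.29, adjusted p = 0.125). It passed without WT female 1 (adjusted p = 0.0341) and on log2(TPM + 1) values (adjusted p = 0.0442). Of 7 tested genes of ATP release and vesicular loading, 2 had an unadjusted p under 0.05 and DESeq2 called 1, Calhm2, a large-pore channel gene (-0.47, SE 0.13, adjusted p = 0.0515 in edgeR). Calhm2 also passed without WT female 2 (adjusted p = 0.0333). The vesicular ATP transporter Slc17a9 (-0.04, SE 0.29) and the pannexin gene Panx1 (-0.06, SE 0.08) did not pass (adjusted p = 0.962 and 0.746).

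The direction for P2rx3 and P2rx5 was the same in every fit that was run. The genotypes of neither gene overlapped in CPM or TPM, so leaving mice out could not have reversed it. The changes are given as a description. Leaving out 1 mouse at a time gave log2 changes of 1.59 (without P278KY male 7) to 1.99 (without WT male 11) for P2rx3 and of -0.37 to -0.30 for P2rx5. Without mice 1 to 4, which held the most muscle RNA, the changes were 1.86 (SE 0.41) and -0.34 (SE 0.07).

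**Figure D5:**
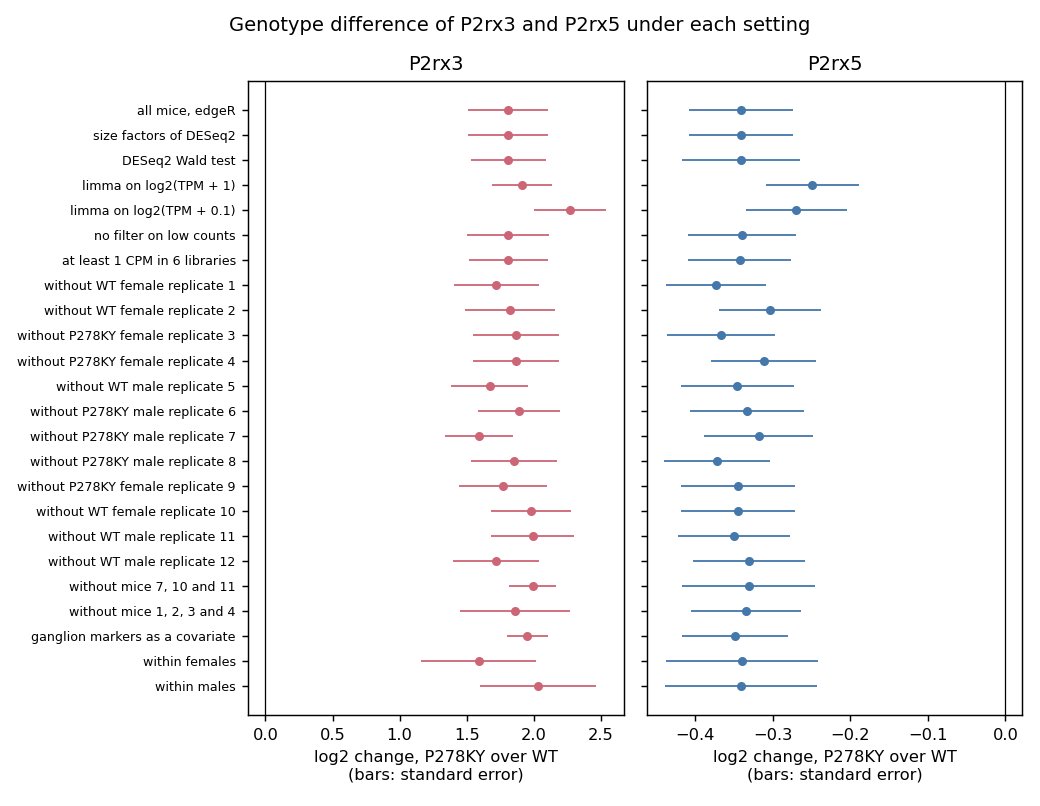
Log2 change of P278KY over WT for P2rx3 (left) and P2rx5 (right) with all mice and under each alternative setting, with bars for the standard error. P2rx3 lies between 1.59 and 2.27 and P2rx5 between -0.37 and -0.25 in every setting.

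For each member the 3 tested genes with the most alike log2 CPM over the 12 mice, among genes with a mean of at least 1 CPM, are given as a description. For P2rx3 they were Gapvd1 (Pearson r 0.924, Spearman rho 0.867), Fam20a (r 0.900, rho 0.888) and Fgf21 (r 0.895, rho 0.732). The genotypes form separate clusters for P2rx3. Within the 6 WT mice r was 0.783, 0.953 and 0.395, and within the 6 P278KY mice 0.351, 0.181 and 0.0208. Over the 9 mice with little ganglion RNA the 3 were Cdsn, Slc7a3 and Cacng3. There r was 0.124, -0.00465 and -0.357 within the WT mice and 0.199, 0.257 and 0.94 within the P278KY mice. All 3 rose in P278KY cord over the 12 mice (log2 change 3.85, 0.76 and 0.36). Genes picked by likeness to P2rx3 or P2rx5 follow the genotypes by that choice, so nothing is read from their genotype differences. For P2rx5 they were Capns1 (r 0.952, rho 0.965), Cyp27a1 (r 0.937, rho 0.860) and Ndufb6 (r 0.932, rho 0.909), which all fell, with r within the 6 WT mice of 0.910, 0.673 and 0.856 and within the 6 P278KY mice of 0.741, 0.874 and 0.814.

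The members without a gap between the genotypes had other nearest patterns. P2rx4 was most like the endoplasmic reticulum genes Pdia3 (r 0.910, rho 0.888) and Calr (r 0.889, rho 0.895) and the transporter gene Abcc3 (r 0.907, rho 0.867). P2rx6 was most like Map7d1 (r 0.938, rho 0.839), Cmas (r 0.931, rho 0.671) and Galnt6 (r 0.895, rho 0.657). P2rx7 was most like Wdr4 (r 0.911, rho 0.881), Smco3 (r 0.843, rho 0.790) and Urgcp (r 0.843, rho 0.909). For the low genes, P2rx1 was most like Acap1 (r 0.903, rho 0.685), Zfp36 (r 0.896, rho 0.713) and Cytip (r 0.877, rho 0.427). For these, r was 0.918, 0.954 and 0.975 within the WT mice and 0.842, 0.771 and -0.245 within the P278KY mice. The WT values include female 1, which stood apart for P2rx1 at 0.926 CPM. P2rx2 was most like Prkag1 (r 0.837, rho 0.874), Zfp324 (r 0.836, rho 0.692) and Prpf38a (r 0.835, rho 0.762). Each of these is the top 3 of 15497 or 15498 genes over libraries that share depth and tissue content, and no p is given.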

How the data were processed

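Whole spinal cord RNA-seq of 12 mice was used. Per the labels' protocols, polyadenylated RNA was made into stranded libraries and read from both ends. Per the submitters' processing notes, Bowtie2 2.2.0 and RSEM 1.2.12 were used, and neither build nor annotation is named there. The authors deposited 1 table per mouse. Per the file headers it holds expected counts, an RSEM estimate of the reads of a gene that splits ambiguous reads. The deposited TPM values correct for effective length and library size, as RSEM defines them. The deposited length column, per the file headers, was used as the mean transcript length in bases.

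Expected counts were rounded. Genes were filtered by filterByExpr of edgeR (count minimum 10) over the 4 groups with TMM scaling. Genotype and sex came from an additive model over 12 mice, and the interaction from a model of 4 group means, with edgeR's quasi-likelihood F test and Benjamini-Hochberg adjustment over all 17980 genes (threshold 0.05). SE is the log2 change over the square root of F. CPM uses scaled library totals, and log2 CPM a prior count of 2. Versions were edgeR 4.0.16, DESeq2 1.42.0 and limma 3.58.1 under R 4.3.3, and the fits were tested on simulated data. The labels do not say whether each mouse is from a separate litter, and no replicate number is shared between groups. Alternatives were DESeq2 size factors and its Wald test, limma on log2(TPM + 1) and log2(TPM + 0.1), no filter and a filter of 1 CPM in 6 libraries, each mouse left out, mice 7, 10 and 11 or mice 1 to 4 left out, a ganglion covariate, and each sex alone.

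Positions and sequences are from GENCODE M21 (GRCm38), matched by identifier for 37607 of 38924 genes. The members and the gene lists were chosen with earlier results of these data known. Named genes were every P2X gene, in each purine list the genes past the threshold or else the gene with the smallest p, the 3 genes most alike per member, and neighbours. Others named in the text were chosen after their values were seen.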

Additional observations from a re-analysis of the deposited data

Results flagged for a closer look

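Levels in CPM of the 7 P2X genes and of Enpp1, Nek7, P2ry2, Ada and Calhm2 were checked for a mouse far from the other 5 of its genotype, with a gap over the range above Dixon's critical value for 6 samples. In 24 groups of 6, 3 mice stood apart, and chance gives about 1 in 20 groups. P2rx3 was at 12.76 CPM in P278KY male 7, the mouse with the most ganglion RNA, against 7.187 CPM in the next mutant. P2rx1 was at 0.926 CPM in WT female 1, against 0.4143 CPM in the next WT mouse. P2ry2 was at 7.242 CPM in the same WT female 1, against 4.181 CPM in the next. WT female 1 also had the highest skeletal muscle markers (9150 CPM) and the highest platelet and red blood cell markers (5412 CPM, others 1083 to 2979). Their part in these values was not tested.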

How the results depend on the processing

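The P2rx3 log2 change ran from 1.59 to 2.27 in 11 alternatives and from 1.59 to 1.99 in 12 fits with 1 mouse left out, all within 0.52 of its value of 1.81, the pooled SD of log2 CPM within genotypes. Sex was tested in 9 of those 11 alternatives and the interaction in 8, and both in the 12 fits. No P2X gene tested there passed. P2rx1 and P2rx2 were too low for the filter of 1 CPM in 6 libraries. Genotype calls (956) moved to 1627 with DESeq2, 1606 and 1622 on log2(TPM + 1) and log2(TPM + 0.1), 255 without mice 7, 10 and 11, 579 without mice 1 to 4, 103 within females and 279 within males, and ran from 554 to 1395 with 1 mouse left out (554 without P278KY male 6, 600 without P278KY female 4, 620 without P278KY male 7 and 637 without WT male 11). Calls in the purine lists (2) moved to 4 with DESeq2, 0 without mice 7, 10 and 11, 1 without mice 1 to 4 and 0 within either sex, and ran from 2 to 5 (without WT female 2). Enpp1 lost its call in 6 of the 11 alternatives and Nek7 in 3, and neither with 1 mouse left out. Sex calls (16) moved to 208 with DESeq2 and 9 without mice 1 to 4, and ran from 11 to 17. Interaction calls (0) moved to 58 with DESeq2, 2 and 3 on the TPM scales, 1 without a filter, 4 with the stricter filter, 29 without mice 7, 10 and 11 and 1 without mice 1 to 4, and ran from 0 to 42 (without P278KY male 7). The cause of these moves was not tested, beyond fewer mice where mice were left out. Each p-value sets a difference against the spread between these mice, and P2rx1 and P2rx2 are limited by 3 to 29 counts a library.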
